A study of Mus musculus with 18 samples.

Results

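The genes described here encode 10 ligands of the TNF superfamily: *Tnf*, *Lta*, *Ltb*, *Fasl*, *Tnfsf9*, *Tnfsf10*, *Tnfsf12*, *Tnfsf13*, *Tnfsf13b* and *Tnfsf14*. They were chosen by gene symbol, and they are 10 of the 54232 genes listed for every one of 18 RNA libraries of mouse eosinophils. Ligands of this family are made as trimers, most of them anchored in the cell membrane, and proteases can release several of them as soluble cytokines. They bind receptors of the TNF receptor superfamily, which pass the signal to NF-κB and MAP kinases through TRAF adaptors or, where the receptor has a death domain, to caspases and RIP kinases. Eosinophils are known as granulocytes that store and release cytokines, TNF among them, at mucosal and serosal surfaces.

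The cells were eosinophils from the peritoneal cavity of C57BL/6 mice of the NJ.1638 *Il5* transgenic line, isolated by removing cells bound by beads against Thy1.2 and B220, with a stated purity and viability above 95%. All groups, the unstimulated cells included, carry the transgene, which raises eosinophil numbers, so none represents eosinophils of a mouse with normal IL-5. The cells were kept for 18 h without a stimulus, with heat-inactivated E. coli, with IFN-γ at 50 ng/ml, with IFN-γ and E. coli together, or with IL-4 at 100 ng/ml. The ages of the mice are not given. Each of the 4 stimulated groups has 3 libraries. Of the 6 unstimulated libraries, a to c share the file layout of E. coli, IFN-γ and IFN-γ + E. coli, and d to f share that of IL-4, so each stimulus was compared with the unstimulated cells deposited in the same layout and no level was compared between layouts. The authors call such libraries biological replicates, and neither the labels nor the methods say whether those of a group come from separate animals, so each p measures the spread between these libraries.

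Counts on genes came to 1523808 to 2734041 per library in the 12 libraries with unstimulated a to c, and to 3625036 to 6482289 in the 6 with IL-4. A gene needs more than 3 counts to stand apart from 0, which is 1.10 to 1.97 CPM (counts scaled to a common library total) in the former and 0.463 to 0.828 CPM in the latter, for counting error only. In the 12 libraries the highest gene of each held 4089 to 4095 counts, a ceiling far above the highest count of any ligand, 466 for *Tnfsf14* in unstimulated a. Levels below are normalized CPM, with the library totals scaled by TMM.

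The label of the cells was compared with 9 eosinophil markers. All 9 had counts in at least some libraries of each layout, and their summed level was 2872 to 5100 normalized CPM over the 12 libraries and 5006 to 5981 over the 6, with *Alox15* or *Ccr3* highest. In the 12 libraries *Alox15* held up to 3732 counts, *Ccr3* up to 3576 and *Siglecf* up to 2556, near enough to the ceiling that their levels and the sum may be compressed. *Epx*, the eosinophil peroxidase of mature granules, stood at 0 to 4 counts in the 12 libraries, near or under what that depth can tell from 0, and at 5 to 19 in the 6, low but above 3 counts in each. *Siglecf*, the surface lectin used to sort mouse eosinophils, was at 942, 1158 and 934 normalized CPM in unstimulated a to c, and averaged 631 after E. coli, 622 after IFN-γ and 346 after both stimuli. Of the 6 eosinophil markers tested there, E. coli had 1 higher and 2 lower, IFN-γ 0 higher and 4 lower by edgeR (4 at an unadjusted p under 0.05, 3 called by DESeq2), and both stimuli 1 higher and 4 lower, *Siglecf* lower in all 3. With IL-4, 4 of 9 were higher and 1 lower. Over all genes 13.5% were higher and 16.7% lower (E. coli), 15.6% and 16.0% (IFN-γ), 23.9% and 25.2% (both), and 5.97% and 4.35% (IL-4). These changes stand beside those of the ligands below, and their part in them was not tested. Markers of T cells were sparse, with 7 of 10 at or under 3 counts in each of the 12 libraries, *Cd3e*, *Cd4* and *Thy1* among them, and 8 of 10 in the 6, and their summed level was 6.49 to 12.2 and 2.06 to 5.53 normalized CPM, with *Cd3d* highest in all libraries but IFN-γ 2, where *Cd8b1* was. Of 6 NK-cell markers, 5 and 4 were at or under 3 counts in the 12 and in the 6, and *Klrb1c* was at 0 in all 18, with *Klrk1* the highest wherever the sum, 0 to 4.45 normalized CPM, was above 0.664. Dendritic-cell markers summed to 5.67 to 10.9 normalized CPM in the 12, and of 6 mesothelial and stromal markers only *Pecam1* passed 3 counts in the 12 libraries. *Pecam1* was at 87.4 ± 7.1 normalized CPM in unstimulated a to c. It was called higher with E. coli (155 ± 5.59) and with IL-4 (148 ± 0.253 against 85.4 ± 8.55). With IFN-γ (63 ± 15.3) edgeR called it lower (adjusted p 0.0371) and DESeq2 did not. The part of *Pecam1* in the levels below was not tested. Macrophage markers were not sparse, and all 10 had counts in each of the 18 libraries. Their sums were 628 to 1676 normalized CPM in the 12 and 1804 to 2816 in the 6. In unstimulated d to f *C1qc* alone stood at 738, 697 and 1017, beside *Siglecf* at 673, 738 and 703. What this means for the stated purity was not tested. In such bulk RNA, fewer cells of a type and less RNA per cell cannot be told apart.

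Of the 10 ligand genes, 6 had enough counts for a test in each layout: *Tnf*, *Ltb*, *Tnfsf9*, *Tnfsf10*, *Tnfsf12* and *Tnfsf14*. *Tnfsf9* had only 3 to 6 counts in unstimulated a to c and passed the filter on low counts through its stimulated libraries, so numbers of genes called among these 6 describe them and support nothing further. The other 4, *Lta*, *Fasl*, *Tnfsf13* and *Tnfsf13b*, are described by their counts.

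*Tnf* encodes the inflammatory cytokine TNF, an early product of cells that meet bacteria. In unstimulated a to c it stood at 16.2, 15.7 and 12.7 normalized CPM. With E. coli it stood at 76.6, 72.7 and 107 normalized CPM. All 3 E. coli libraries were above all 3 unstimulated ones, and E. coli 3 was the highest of the 12 libraries. With IFN-γ, the macrophage-activating interferon, *Tnf* was at 21.7, 19.9 and 24.7 normalized CPM. With both stimuli it was at 74.0, 69.1 and 99.7. The IFN-γ libraries lay just above the unstimulated ones and far below every library that had received E. coli, and the libraries with both stimuli overlapped those with E. coli alone.

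*Tnf* was thus ordered E. coli (85.6 ± 19.0 normalized CPM, SD, n = 3), IFN-γ + E. coli (80.9 ± 16.4), IFN-γ (22.1 ± 2.46) and unstimulated (14.9 ± 1.91). *Tnf* rose on the log2 scale by 2.51 with E. coli (95% interval 2.09 to 2.93, adjusted p 2.63e-08). This and every further adjusted p come from edgeR over all genes tested unless another tool is named, and were adjusted by the Benjamini-Hochberg method. With both stimuli it rose by 2.44 (SE 0.20, adjusted p 1.5e-08). Adding E. coli to IFN-γ raised it by 1.88 (SE 0.20, adjusted p 3.54e-06), and with IFN-γ alone it was lower than with E. coli alone by a log2 difference of -1.95 (SE 0.19, adjusted p 3.06e-07). Adding IFN-γ to E. coli gave a log2 difference in *Tnf* of -0.07 with a 95% interval of -0.42 to 0.28 (adjusted p 0.774). For IFN-γ alone the log2 difference from unstimulated cells was 0.56 (SE 0.24, adjusted p 0.0815), which did not pass although the groups did not overlap. It passed without E. coli 3 (0.57, adjusted p 0.0477) or without IFN-γ + E. coli 3 (0.59, adjusted p 0.0442), libraries that enter that comparison through the shared estimate of spread, and over all alternatives the adjusted p ran from 0.0442 to 0.223.

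Neutrophil markers summed higher with E. coli, and single markers went different ways. Of 9 listed, 5 to 7 had counts in unstimulated a to c, with a summed level of 42.4, 35.2 and 45.0 normalized CPM, and 5 to 8 with E. coli, with 158, 129 and 211. The sum was 70.7, 67.2 and 79.4 with IFN-γ and 71.1, 82.7 and 110 with both stimuli. *Cxcr2* or *S100a8* was the most abundant of them in each library, and *Mpo*, *Elane*, *Ngp* and *Ltf* were at or under 3 counts in all 12. Of the 3 tested, E. coli had 2 higher, *Cxcr2* and *S100a8*, and 0 lower by edgeR (2 at an unadjusted p under 0.05, 2 called by DESeq2), with *Ly6g* at 3.24, 2.99 and 3.92 normalized CPM against 4.42, 1.26 and 6.55 unstimulated. With IFN-γ and with both stimuli *S100a8* and *Ly6g* were called higher and *Cxcr2* lower. E. coli 3 and IFN-γ + E. coli 3, highest in *Tnf* in their groups, were also highest in this sum. With both stimuli the sum overlapped that with IFN-γ alone, and every *Tnf* value lay above those with IFN-γ alone. The part of these markers in the level of *Tnf* was not tested.

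*Ltb* encodes lymphotoxin β, which holds lymphotoxin α at the cell surface and is needed to organize lymphoid tissue. In unstimulated a to c it stood at 143, 146 and 103 normalized CPM. With E. coli it was at 62.0, 44.5 and 62.8, and with IFN-γ at 74.0, 56.5 and 59.2. Every library with 1 stimulus was below every unstimulated one, and the E. coli and IFN-γ groups overlapped. With both stimuli *Ltb* was at 24.7, 32.7 and 23.0 normalized CPM, below all 9 other libraries of the set.

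The order of *Ltb* was unstimulated (130 ± 24.1 normalized CPM, SD, n = 3), IFN-γ (63.2 ± 9.42), E. coli (56.4 ± 10.3) and IFN-γ + E. coli (26.8 ± 5.17), of which the middle groups did not differ beyond their spread (log2 difference 0.17, 95% interval -0.20 to 0.55). On the log2 scale *Ltb* fell by 1.22 with E. coli (SE 0.17, adjusted p 1.82e-05) and by 1.04 with IFN-γ (SE 0.17, adjusted p 0.000109). With both stimuli it fell by 2.27 (95% interval -2.67 to -1.86, adjusted p 1.8e-08). The change with both was near the sum of the separate log2 changes, with an interaction term of -0.01 (95% interval -0.48 to 0.47, adjusted p 0.995). It was lower with both stimuli than with IFN-γ (log2 difference -1.22, SE 0.21, adjusted p 0.00054) and than with E. coli (-1.05, SE 0.20, adjusted p 0.000555). No single library or alternative setting ended a call for *Ltb* in these 5 comparisons.

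B cells are known for *Ltb*, and the isolation removed B220-bearing cells, so *Cd79a* and *Cd79b*, which encode chains of the B-cell receptor complex, were measured beside it, chosen after their values were seen. *Cd79a* stood at 44.2, 49.1 and 26.2 normalized CPM in unstimulated a to c, at 15, 11.3 and 16.7 with E. coli, at 20, 14.3 and 15 with IFN-γ, and at 25.4, 33.7 and 28.2 with both stimuli. *Cd79b* stood at 18.8, 17.6 and 9.82 unstimulated, at 3.65, 3.32 and 6.37 with E. coli, at 5.56, 4.58 and 7.16 with IFN-γ, and at 11.6, 12.5 and 12.5 with both. Both genes were below every unstimulated library with each stimulus alone, beside the lower *Ltb*. With both stimuli *Ltb* was at its lowest, and *Cd79a* and *Cd79b* overlapped their unstimulated levels. The part of B cells in the level of *Ltb* was not tested.

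*Tnfsf9* encodes 4-1BBL, the ligand through which antigen-presenting cells costimulate T cells that carry 4-1BB. In unstimulated a to c it stood at 2.21, 1.89 and 2.46 normalized CPM, on 6, 3 and 6 counts. With E. coli it was at 5.67, 8.30 and 9.32, and with IFN-γ at 11.7, 19.3 and 20.2. The 3 groups did not overlap, with every IFN-γ library above every E. coli library. With both stimuli *Tnfsf9* was at 23.9, 34.8 and 24.3 normalized CPM, above the 9 other libraries.

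The order of *Tnfsf9* was IFN-γ + E. coli (27.7 ± 6.19 normalized CPM, SD, n = 3), IFN-γ (17.1 ± 4.68), E. coli (7.76 ± 1.88) and unstimulated (2.19 ± 0.285). The log2 rise over unstimulated cells was 1.77 with E. coli (SE 0.39, adjusted p 0.00198), 2.90 with IFN-γ (SE 0.36, adjusted p 5.02e-06) and 3.61 with both (95% interval 2.91 to 4.32, adjusted p 5.71e-08). IFN-γ raised it above E. coli by 1.13 (SE 0.28, adjusted p 0.00507), and IFN-γ added to E. coli raised it by 1.85 (SE 0.26, adjusted p 2.31e-05). E. coli added to IFN-γ gave a log2 difference of 0.72 (SE 0.25) that did not pass (adjusted p 0.0682), so the first 2 groups in the order are not separated by this test although their libraries do not overlap. With the replicate number as a block the difference was 0.70 (adjusted p 0.0424, and 0.0424 to 0.33 over all alternatives), which passed. The interaction of the stimuli in *Tnfsf9* was -1.05 (SE 0.47, adjusted p 0.259).

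Markers of macrophages and of mast cells summed higher in the IFN-γ and IFN-γ + E. coli libraries, as *Tnfsf9* did. All 10 macrophage markers had counts in every library, and they summed to 1105, 975 and 1085 normalized CPM in unstimulated a to c, to 696, 628 and 1010 with E. coli, to 1560, 1492 and 1477 with IFN-γ, and to 1304, 1480 and 1676 with both, with *Csf1r* or *Marco* highest. The 6 mast-cell markers, with 3 to 5 at a count in each library, *Tpsb2* or *Cma1* highest and *Mcpt4* and *Ms4a2* at or under 3 counts throughout, summed to 9.96, 8.81 and 7.37 normalized CPM unstimulated, 9.73, 6.64 and 34.3 with E. coli, 30, 14.3 and 13.0 with IFN-γ, and 35.6, 70.2 and 66.2 with both. Their part in *Tnfsf9* was not tested.

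*Tnfsf14* encodes LIGHT, a costimulatory ligand for HVEM and the lymphotoxin β receptor. In unstimulated a to c it stood at 172, 175 and 155 normalized CPM. With E. coli it was at 137, 123 and 132, and with IFN-γ at 231, 201 and 217. Every E. coli library was below the unstimulated ones and every IFN-γ library above them. With both stimuli *Tnfsf14* was at 128, 128 and 115 normalized CPM, in the range of E. coli alone or under it.

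The levels of *Tnfsf14* were in the order IFN-γ (216 ± 15.2 normalized CPM, SD, n = 3), unstimulated (167 ± 10.6), E. coli (131 ± 7.36) and IFN-γ + E. coli (124 ± 7.30), and the last 2 did not differ beyond their spread (log2 difference -0.08, 95% interval -0.30 to 0.15). The changes were small: a log2 fall by 0.36 with E. coli (SE 0.10, adjusted p 0.0139), a rise by 0.37 with IFN-γ (SE 0.10, adjusted p 0.0112) and a fall by 0.44 with both (SE 0.11, adjusted p 0.0026). Adding E. coli to IFN-γ lowered *Tnfsf14*, with a log2 difference of -0.80 (SE 0.11, adjusted p 5.21e-05), and IFN-γ alone lay above E. coli alone by 0.73 (SE 0.10, adjusted p 2.94e-05). Its interaction term was -0.44 (SE 0.15, adjusted p 0.106). The fall with E. coli did not pass without unstimulated a (-0.33, adjusted p 0.0569), unstimulated b (-0.31, adjusted p 0.0544) or E. coli 2 (-0.31, adjusted p 0.088), or without a filter on low counts (-0.32, adjusted p 0.103), and its adjusted p ranged from 0.0092 to 0.103 over all alternatives.

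Another scaling of the libraries shifts all genes alike, *Tnfsf14* with them. With library totals in place of TMM factors the median log2 change of all genes moved from -0.03 to -0.21 with IFN-γ and from -0.04 to -0.29 with both stimuli, and the share of called genes that were higher moved from 49.4% to 28.4% and from 48.7% to 29.5%. The same scaling moved the median from -0.02 to -0.25 for both stimuli against E. coli (share higher 53.2% to 27.7%) and from -0.02 to -0.17 for IFN-γ against E. coli (55.2% to 35.4%). For both stimuli against IFN-γ it moved the share from 51.1% to 35.2%. On that scale the rise of *Tnfsf14* with IFN-γ was 0.19 (adjusted p 0.152, and 0.00464 to 0.152 over all alternatives). Its change with both stimuli was -0.69 (adjusted p 4.1e-05, and 4.1e-05 to 0.0157 over all), and its difference between both stimuli and E. coli -0.31 (adjusted p 0.0296, and 0.0296 to 0.871 over all). A scaling that shifts all genes alike leaves changes relative to the median of all genes about as they were. Directions of *Tnf*, *Ltb*, *Tnfsf9* and *Tnfsf14* relative to that median are therefore no test of the scaling.

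*Tnfsf10* encodes TRAIL, which can induce apoptosis through a death-domain receptor. In unstimulated a to c it stood at 18.4, 11.3 and 17.2 normalized CPM. With E. coli it was at 3.65, 4.98 and 5.39, and with IFN-γ at 12.2, 18.8 and 25.4. The E. coli libraries were the lowest 3 of the set, and the IFN-γ libraries spread across and above the unstimulated ones. With both stimuli *Tnfsf10* was at 11.6, 15.2 and 17.1 normalized CPM, inside the unstimulated range.

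The order of *Tnfsf10* was IFN-γ (18.8 ± 6.57 normalized CPM, SD, n = 3), unstimulated (15.7 ± 3.80), IFN-γ + E. coli (14.6 ± 2.77) and E. coli (4.67 ± 0.912), and the first 3 groups overlapped. With E. coli *Tnfsf10* fell by 1.77 on the log2 scale (SE 0.31, adjusted p 0.000258). Its log2 difference from unstimulated cells was 0.21 with IFN-γ (95% interval -0.34 to 0.76, adjusted p 0.589) and -0.13 with both stimuli (95% interval -0.71 to 0.46, adjusted p 0.73). Adding IFN-γ to E. coli raised *Tnfsf10* by 1.65 (SE 0.33, adjusted p 0.000826), and IFN-γ alone lay above E. coli alone by 1.98 (SE 0.32, adjusted p 8.73e-05). The interaction term, 1.44 (SE 0.43, 95% interval 0.54 to 2.33), had an adjusted p of 0.0625. It passed without unstimulated b (1.56, adjusted p 0.0441), without IFN-γ 3 (1.67, adjusted p 0.038) or without a filter on low counts (1.37, adjusted p 0.0388), and over all alternatives its adjusted p ran from 0.038 to 0.173. In the 12 libraries macrophage markers were called in each comparison in which *Tnfsf10* was, and in the interaction, in which it was not. Of the 10, edgeR called 0 higher and 4 lower with E. coli (6 at an unadjusted p under 0.05, 4 called by DESeq2), where 16.7% of all genes were lower. For both stimuli against E. coli it called 5 higher and 0 lower (5 and 5), where 17.5% of all genes were higher. For IFN-γ against E. coli it called 6 higher and 0 lower (9 and 7), where 14.1% were higher. For the interaction it called 2 higher and 0 lower (6 and 2), where 2.58% were higher. The medians, in this order from E. coli to the interaction, were -0.84, 0.88, 0.99 and 1.16. Without a call of *Tnfsf10*, IFN-γ had 4 markers higher and 2 lower (15.6% and 16.0% of all genes). Both stimuli against unstimulated cells had 3 and 1 (23.9% and 25.2%). *Marco* was at 164, 161 and 159 normalized CPM in unstimulated a to c, 45.8, 37.2 and 66.2 with E. coli, and 319, 432 and 466 with both stimuli, and *Timd4* at 26.9, 23.9 and 32.7, then 7.70, 7.63 and 12.7, then 21.8, 23.9 and 36.7. The part of macrophages in the level of *Tnfsf10* was not tested.

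*Tnfsf12* encodes TWEAK, a ligand of the receptor FN14 in tissue repair. In unstimulated a to c it stood at 21.0, 13.8 and 10.6 normalized CPM. With E. coli it was at 8.51, 10.3 and 15.2, with IFN-γ at 11.7, 5.09 and 7.81, and with both stimuli at 5.81, 7.07 and 8.53. Unstimulated a was the highest of the 12, and only the group with both stimuli lay wholly below the unstimulated one. The log2 change of *Tnfsf12* was -1.10 with both stimuli (SE 0.35, adjusted p 0.0151), -0.92 with IFN-γ (SE 0.34, adjusted p 0.0454) and -0.47 with E. coli (SE 0.30, adjusted p 0.267). Without unstimulated a the change with both stimuli was -0.75 (adjusted p 0.127), and without IFN-γ + E. coli 1 it was -0.96 (adjusted p 0.0565), with a range of adjusted p over all alternatives of 0.00382 to 0.127. The change with IFN-γ rested on single libraries: it was -0.56 without unstimulated a (adjusted p 0.3), -0.61 without IFN-γ 2 (adjusted p 0.223), -0.87 without IFN-γ 3 (adjusted p 0.115) and -0.95 without unstimulated b (adjusted p 0.063). Leaving out E. coli 2 (adjusted p 0.0554), IFN-γ + E. coli 1 (adjusted p 0.0539) or IFN-γ + E. coli 2 (adjusted p 0.0571), or testing with DESeq2 (adjusted p 0.0944), also ended it, and its adjusted p ranged from 0.0193 to 0.3 over all alternatives. *Tnfsf12* shares 48.3% of its exon bases with *Tnfsfm13*, a read-through gene on the same strand, and the union mode of HTSeq named in the study's methods gives reads in such bases to neither gene, so where that mode was used its counts are a part of its reads.

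**Figure D1:**
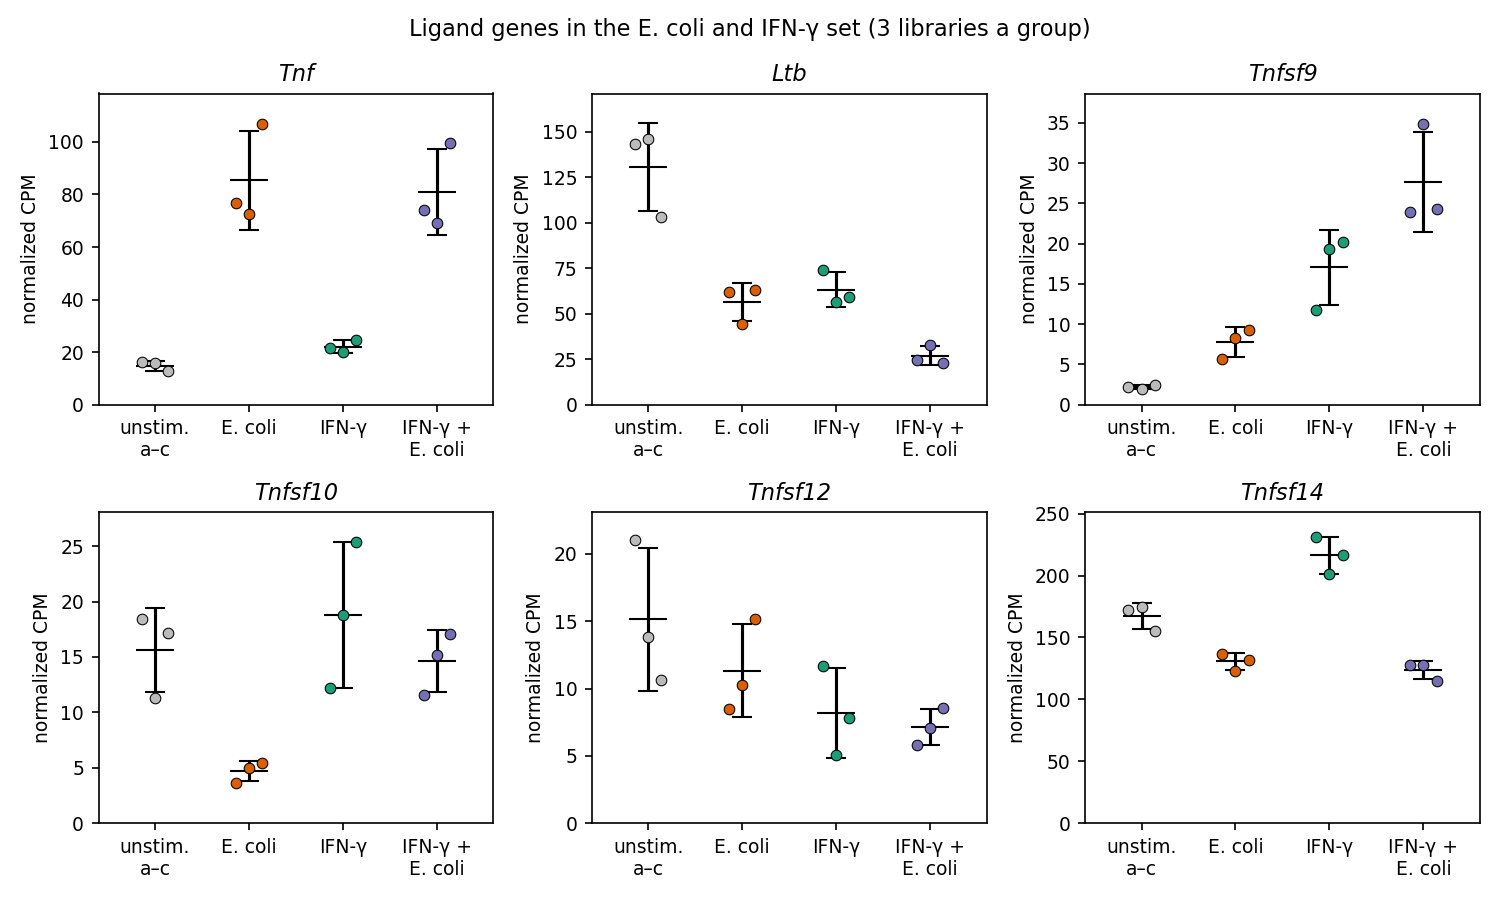
Normalized CPM (vertical axes from 0) of the 6 tested ligand genes in the 12 libraries of unstimulated cells a to c, E. coli, IFN-γ and IFN-γ + E. coli, where each point is a library, and the long bar and whiskers are the mean and SD of 3. *Tnf* is high in the 6 libraries with E. coli (69.1 to 107), *Ltb* is lowest (23.0 to 32.7) and *Tnfsf9* highest (23.9 to 34.8) with both stimuli, and *Tnfsf10* is lowest (3.65 to 5.39) with E. coli alone.

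The counts of the 4 ligands without a test were near 0 with and without a stimulus. *Lta*, for lymphotoxin α, had 0 to 2 counts in each of the 12 libraries, with a count in 5 of them, none unstimulated, and 0 to 2 in each of the 6 libraries with IL-4. *Fasl*, the Fas ligand of cytotoxic lymphocytes, had 1 count in the 12 libraries, in E. coli 1, and in the other layout 1 count in unstimulated d and 7 in IL-4 1. *Tnfsf13*, for APRIL, had 0 counts in all 18 libraries, but 60.0% of its exon bases are shared with *Tnfsfm13* on the same strand, and reads there go to neither gene where the union mode was used, which is not known for the 6 libraries with IL-4. *Tnfsfm13* itself had 0 to 3 counts in the 12 libraries and 0 to 5 in the 6. Where reads in shared bases were left out, the level of *Tnfsf13* is not known from these counts. *Tnfsf13b*, for the B-cell survival factor BAFF, had 0 to 3 counts in the 12 libraries, with a count in 7 of them, and 1, 4 and 1 counts in unstimulated d to f against 5, 7 and 6 with IL-4. The IL-4 libraries of *Tnfsf13b* were all above the unstimulated ones in counts, on levels of 0.947 to 1.55 against 0.188 to 0.661 normalized CPM, and received no test. Differences in these 4 genes were not detectable at this depth where they stay under 3 counts.

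The 8 further ligands of the family, outside the 10, were sparse too, and 0 of them had enough counts for a test in either layout. *Tnfsf11* and *Tnfsf18* were at 0 in all 18 libraries. *Cd70*, which lies between *Tnfsf9* and *Tnfsf14* in the genome, had 0 to 8 counts in each layout, *Tnfsf4* 0 to 5 in the 12 libraries and 1 to 9 in the 6, and *Tnfsf15* 0 to 6 in each. *Tnfsf8* had 0 to 1 and 0 to 2 counts, *Cd40lg* 0 to 1 and 0, and *Eda* 0 to 1 and 0.

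In the layout with IL-4, the cytokine of type 2 immunity, unstimulated e stands apart from the other unstimulated libraries: pairs of replicates differed by a chi-square per gene of 21.4 (d and e), 19.8 (e and f) and 7.17 (d and f), against 3.51 to 4.89 among the IL-4 libraries. *Tnf* stood at 22.7, 17.5 and 11.3 normalized CPM in unstimulated d to f and at 9.09, 5.95 and 8.52 with IL-4. The IL-4 libraries were all below the unstimulated ones, the nearest being unstimulated f. *Tnf* fell with IL-4 by 1.12 on the log2 scale (SE 0.30, 95% interval -1.78 to -0.46, adjusted p 0.0389), and without unstimulated e the change was -1.10 (adjusted p 0.032). The call was lost without unstimulated d (-0.89, adjusted p 0.0853), IL-4 1 (-1.24, adjusted p 0.0997), IL-4 2 (-0.95, adjusted p 0.161) or IL-4 3 (-1.19, adjusted p 0.098), and with library totals only (-1.05, adjusted p 0.0521), while over all alternatives the adjusted p ran from 0.00133 to 0.161.

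*Tnfsf10* stood at 12.4, 14.7 and 24.6 normalized CPM in unstimulated d to f and at 41.7, 44.5 and 45.2 with IL-4. The IL-4 libraries were close together and all above the unstimulated ones, of which f was highest. *Tnfsf10* rose by 1.33 on the log2 scale (SE 0.23, 95% interval 0.81 to 1.84, adjusted p 0.0052), by 1.19 without unstimulated e (adjusted p 0.00228), and by 1.16 to 1.67 when each library in turn was left out (adjusted p 0.00162 to 0.0314).

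*Tnfsf14* was at 58.4, 39.5 and 61.2 normalized CPM in unstimulated d to f and at 67.6, 65.0 and 82.6 with IL-4. The groups did not overlap, with unstimulated e lowest, but the log2 difference of 0.44 (SE 0.19, adjusted p 0.176) did not pass, and it was 0.25 without unstimulated e (adjusted p 0.293, and 0.148 to 0.44 over all alternatives). *Ltb* was at 85.5, 78.3 and 83.8 unstimulated and at 63.6, 63.2 and 76.7 with IL-4. These groups did not overlap either, and the log2 difference of -0.28 (SE 0.14, 95% interval -0.58 to 0.02, adjusted p 0.223) did not pass. It was -0.33 without unstimulated e (adjusted p 0.122, and 0.122 to 0.513 over all alternatives). *Tnfsf9* was at 3.60, 0.991 and 1.32 against 2.84, 1.32 and 3.36 normalized CPM with IL-4, on 6 to 15 counts. Its groups overlapped, and the log2 difference was 0.40 (95% interval -0.93 to 1.74, adjusted p 0.72). It was 0.05 without unstimulated e and 1.08 without unstimulated d, the ends of its range when each library was left out, and passed in neither case. *Tnfsf12* was at 10.5, 13.0 and 12.8 against 12.5, 10.3 and 12.6 with IL-4. The libraries of *Tnfsf12* were interleaved, with a log2 difference of -0.05 (95% interval -0.53 to 0.43, adjusted p 0.915).

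Macrophage markers, of which 10 of 10 had counts in each of these libraries, summed to 2216, 2502 and 2816 normalized CPM in unstimulated d to f and to 1890, 1804 and 2080 with IL-4, with *C1qc* or *C1qb* highest. Of the 10, edgeR called 4 lower, where 4.35% of all genes were lower, and 0 higher (6 at an unadjusted p under 0.05 in either direction, 4 called by DESeq2), while *Timd4* (79.8 to 103 against 53 to 75.3) and *Gata6* (13.9 to 20.3 against 10.3 to 11.2) lay above the unstimulated libraries in all 3 with IL-4. The 9 neutrophil markers, 6 to 9 with counts in each library, summed to 21.0, 21.3 and 23.9 normalized CPM unstimulated and to 42.4, 42.3 and 67.4 with IL-4, with *S100a8* highest unstimulated and *Cxcr2* with IL-4, and 1 of 4 tested, *Cxcr2*, was called higher, where 5.97% of all genes were. *Cxcr2* carries that sum, at 27.8, 25.3 and 42.6 normalized CPM with IL-4 against 3.87, 2.48 and 4.88, while *S100a8* lay lower in all 3, at 5.11, 3.97 and 5.16 against 7.47, 7.76 and 7.89. Dendritic-cell markers, 3 to 5 of 6 with counts in each library and *Xcr1* or *Zbtb46* highest, summed to 5.53, 4.29 and 7.89 normalized CPM unstimulated and to 7.57, 13.4 and 17.8 with IL-4, and 1 of 2 tested, *Xcr1*, was called higher (7.06 ± 1.96 against 2.82 ± 0.607). Mast-cell markers, 5 or 6 of 6 with counts, summed to 8.30, 6.77 and 7.14 unstimulated and to 17.4, 8.11 and 20.6 with IL-4, with *Tpsb2* or *Cpa3* highest, and edgeR called 0 of 2 tested (2 at an unadjusted p under 0.05, 0 called by DESeq2). The part of these cell types in the levels of *Tnf* and *Tnfsf10* was not tested. *Cd79b* stood at 2.49, 2.15 and 3.38 normalized CPM unstimulated and at 6.25, 6.45 and 9.29 with IL-4, all 3 above the unstimulated libraries. *Cd79a* had 4, 1 and 2 counts against 4, 10 and 4, and *Ltb* lay lower with IL-4, without a call. The part of B cells in the level of *Ltb* was not tested here either.

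**Figure D2:**
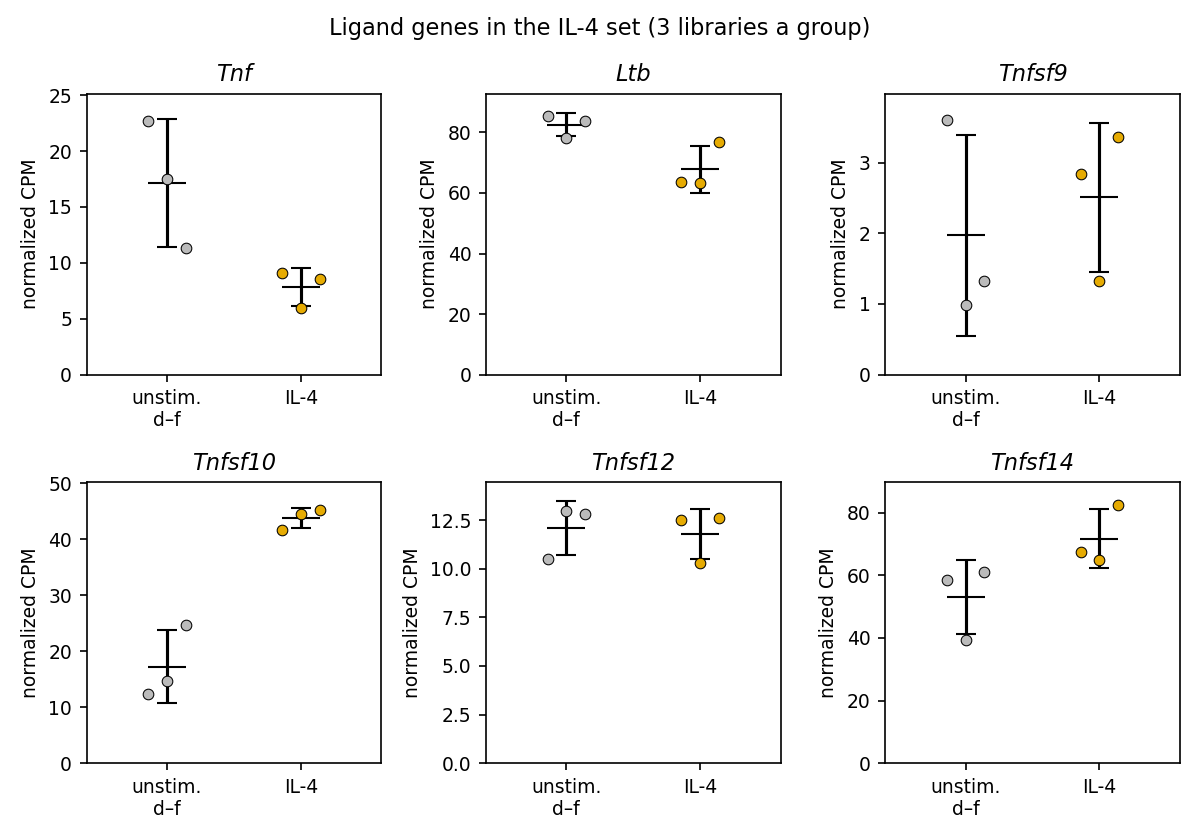
Normalized CPM (vertical axes from 0) of the 6 tested ligand genes in unstimulated libraries d to f and in the 3 libraries with IL-4, where each point is a library and the long bar and whiskers are the mean and SD of 3. *Tnfsf10* lies at 41.7 to 45.2 with IL-4 and at 12.4 to 24.6 without, and *Tnf* at 5.95 to 9.09 with IL-4 and at 11.3 to 22.7 without.

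Counted over the tested ligands, E. coli raised 2 of 6, *Tnf* and *Tnfsf9*, where 13.5% of the 9883 genes tested were higher, and lowered 3, *Ltb*, *Tnfsf10* and *Tnfsf14*, where 16.7% were lower. The median log2 change of the 6 was -0.41, against -0.02 over all genes. IFN-γ raised 2, *Tnfsf9* and *Tnfsf14* (15.6% of all genes), and lowered 2, *Ltb* and *Tnfsf12* (16.0%), with a median of 0.29 against -0.03. IFN-γ + E. coli raised 2, *Tnf* and *Tnfsf9* (23.9%), and lowered 3, *Ltb*, *Tnfsf12* and *Tnfsf14* (25.2%), with a median of -0.28 against -0.04. These 3 comparisons share unstimulated a to c, so they are not independent of each other. IL-4 raised 1 of 6, *Tnfsf10* (5.97% of 10556 genes), and lowered 1, *Tnf* (4.35%), with a median of 0.18 against 0.00. Each of these 4 comparisons had tested ligands called in both directions, with IL-4 1 each way, and the call of *Tnf* there depends on single libraries.

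Between stimulated groups, E. coli added to IFN-γ raised 1 ligand, *Tnf* (6.25% of all genes), and lowered 2, *Ltb* and *Tnfsf14* (5.98%). IFN-γ added to E. coli raised 2, *Tnfsf9* and *Tnfsf10* (17.5%), and lowered 1, *Ltb* (15.3%). IFN-γ against E. coli had 3 higher, *Tnfsf9*, *Tnfsf10* and *Tnfsf14* (14.1%), and 1 lower, *Tnf* (11.5%). The interaction term, which measures how far the joint log2 change departs from the sum of the separate ones, was called by edgeR for 0 of the 6 in either direction, where it was called higher for 2.58% and lower for 2.04% of all genes. Of the 6 ligands, 4 had an unadjusted p under 0.05 for it, *Tnf*, *Tnfsf9*, *Tnfsf10* and *Tnfsf14*, and DESeq2 called 0.

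**Figure D3:**
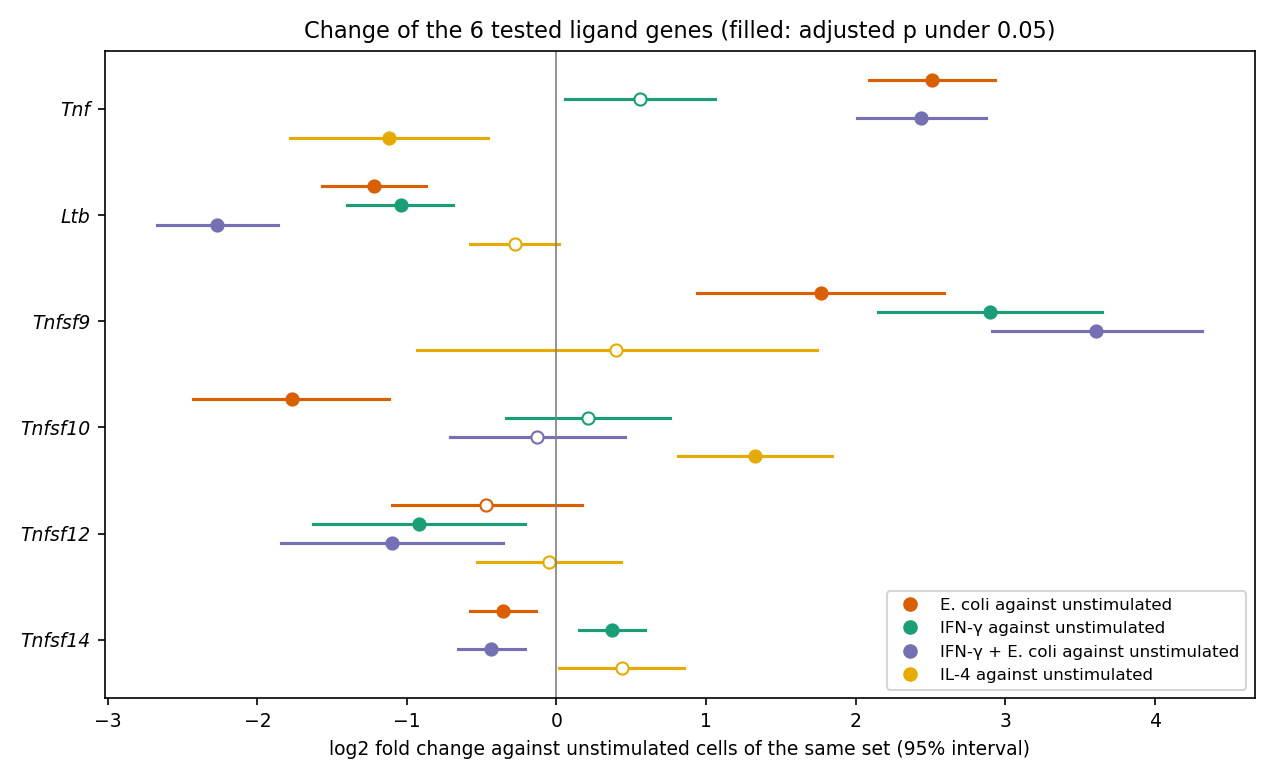
Log2 fold change (horizontal axis) of each tested ligand gene against the unstimulated libraries of its own layout, with 95% intervals from edgeR, for E. coli, IFN-γ, IFN-γ + E. coli and IL-4, where filled points have an adjusted p under 0.05. *Tnf* lies at 2.51 with E. coli and at -1.12 with IL-4, *Tnfsf10* at -1.77 and 1.33, and the comparisons with E. coli, IFN-γ and both share their unstimulated libraries.

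Of the 10 genes, 5 lie on chromosome 17, in 2 clusters (GRCm38). *Ltb* (chr17:35194439-35196320, plus strand), *Tnf* (chr17:35199381-35202007, minus strand) and *Lta* (chr17:35203165-35205351, minus strand) lie next to each other, with 3060 bases between *Ltb* and *Tnf* and 1157 between *Tnf* and *Lta*. These 3 neighbours had different patterns with E. coli: *Tnf* rose, *Ltb* fell and *Lta* stayed at 0 or 1 counts. *Tnfsf9* (chr17:57105325-57107757, plus strand) and *Tnfsf14* (chr17:57189492-57194177, minus strand) lie on either side of *Cd70*, at 38239 and 39714 bases from it. *Tnfsf9* and *Tnfsf14* both rose with IFN-γ, and with E. coli *Tnfsf9* rose and *Tnfsf14* fell. *Tnfsf13* and *Tnfsf12* are 465 bases apart on chromosome 11, *Tnfsf10* is on chromosome 3 (chr3:27317028-27342427), *Fasl* on chromosome 1 and *Tnfsf13b* on chromosome 8. *Tnfsf9* shares 14.9% of its exon bases with *Gm11110* on the other strand, which had 0 to 8 counts in the 12 libraries and 3 to 10 in the 6.

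The 6 genes around the *Lta*, *Tnf* and *Ltb* cluster were all tested. Of them 0 were higher and 3 lower with E. coli, 1 higher and 0 lower with IFN-γ, 0 higher and 4 lower with both stimuli, and 0 higher and 1 lower with IL-4 by edgeR, with 4, 2, 4 and 2 at an unadjusted p under 0.05 and 2, 1, 3 and 1 called by DESeq2. Over all genes 13.5% were higher and 16.7% lower (E. coli), 15.6% and 16.0% (IFN-γ), 23.9% and 25.2% (both), and 5.97% and 4.35% (IL-4). The median log2 changes of the 6 were -0.62, -0.16, -0.90 and -0.24, against -0.02, -0.03, -0.04 and 0.00 over all genes. *Lst1*, a small myeloid gene beside *Ltb*, was at 850 ± 38.0 normalized CPM with E. coli and 1276 ± 270 without, a log2 fall by 0.59 (SE 0.13, adjusted p 0.00226), or -0.38 without unstimulated b. *Lst1* held 2523 to 3000 counts in unstimulated a to c, near enough to the ceiling that its level and fall may be compressed, and with counts corrected for the ceiling the change was -0.83. *Aif1*, a cytoskeletal gene of myeloid cells, had 3, 2 and 0 counts with E. coli and 0, 3 and 2 with both stimuli, against 48, 14 and 29 in unstimulated a to c.

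*Tnf* mRNA is known to be held at low levels by AU-rich elements in its 3′ UTR, where ATTTA is the core pentamer. The annotated 3′ UTR of *Tnf* holds 8 ATTTA in 764 bases, or 10.5 per kb, more per kb than 99.4% of 20213 genes with a 3′ UTR of at least 100 bases, where the median is 1.26 per kb and 68.4% hold at least 1. *Tnfsf9* holds 2 in 253 bases, 7.91 per kb, more than 98.3% of these genes, and *Lta* 3 in 572 bases, 5.24 per kb. *Tnfsf10* holds 8 in 3998 bases, 2.00 per kb, *Tnfsf14* 1 in 1019 bases, and *Ltb* and *Tnfsf13* hold 0. The stretch of 30 bases with most of them in *Tnf* (chr17:35199679-35199708, minus strand, GRCm38) is shown because 5 of the 8 lie in it, each ATTTA in capitals and some sharing a base.
*Tnf* 3′ UTR: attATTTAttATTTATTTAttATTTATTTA

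Promoter sequences from RefSeq (GRCm38.p6) were at hand for 8 of the 10 genes, without *Tnfsf9* and *Tnfsf12*, and the 250 bases before each start were searched on both strands for 4 motifs: the NF-κB consensus, GAS (TTCNNNGAA), the ISRE core (GAAANNGAA) and AP-1 (TGANTCA). Over 32851 promoters of that length, 7.25%, 7.02%, 7.13% and 6.75% hold a match. *Tnf* had no match to any of these letters in the window. *Ltb* had a GAS match 172 bases before the start and an NF-κB consensus match on the opposite strand 87 bases before it. *Lta* had a pair of GAS matches, 152 and 16 bases before the start, and *Tnfsf14* an AP-1 match 160 bases before it. *Tnfsf13* had an AP-1 match 133 bases before the start, and *Tnfsf13b* an ISRE core match 16 and an AP-1 match 127 bases before the second of its starts. A match describes the letters and is neither a bound site nor a cause. A missing match, as in *Tnf*, covers only these letters in these 250 bases. Sites further away or with other letters were not searched. The sequences before *Tnf* (chr17:35202008-35202257, minus strand) and *Ltb* (chr17:35194257-35194438, plus strand, up to the annotated gene) are printed because these neighbours moved in opposite directions with E. coli, with the GAS and NF-κB matches in capitals.
*Tnf*: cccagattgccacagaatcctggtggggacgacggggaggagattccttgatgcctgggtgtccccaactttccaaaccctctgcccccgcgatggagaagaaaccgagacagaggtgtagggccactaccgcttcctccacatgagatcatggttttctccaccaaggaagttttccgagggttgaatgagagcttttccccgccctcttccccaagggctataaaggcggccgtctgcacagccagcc
*Ltb*: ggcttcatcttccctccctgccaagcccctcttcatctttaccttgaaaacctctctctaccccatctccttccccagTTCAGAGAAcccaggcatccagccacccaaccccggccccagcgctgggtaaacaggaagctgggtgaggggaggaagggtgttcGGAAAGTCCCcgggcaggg

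The genes most like each ligand were taken over the 12 libraries as those with the highest Pearson correlation of log2 CPM among the 9883 tested. The 12 points fall into 4 groups of 3, so a correlation mostly reflects the order of these groups, and it says nothing of shared function or control. For *Tnf* they were *Pilra* (r = 0.986), *Peg10* (0.980) and *Phlda1* (0.979). *Pilra* averaged 71.0, 424, 87.1 and 349 normalized CPM in unstimulated, E. coli, IFN-γ and IFN-γ + E. coli libraries, high like *Tnf* in the groups with E. coli. For *Ltb* they were *Rnaseh2a* (0.982), *Cr1l* (0.978) and *Dapk2* (0.978). *Dapk2* averaged 28.5, 9.87, 10.2 and 2.55 normalized CPM in the same order of groups, lowest like *Ltb* with both stimuli. For *Tnfsf9* they were *Fam162a* (0.986), *Tec* (0.983) and *Vegfa* (0.983). *Vegfa*, for the vascular growth factor, averaged 20.7, 113, 425 and 1096, and like *Tnfsf9* it was highest with both stimuli. For *Tnfsf14* they were *1700016F12Rik* (0.955), *Ffar2* (0.922) and *5330438D12Rik* (0.920), and *Ffar2* averaged 204, 88.1, 259 and 118, highest like *Tnfsf14* with IFN-γ.

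The receptors through which these ligands act were measured in the same libraries. Of 28 receptor genes, 16 were tested beside E. coli and IFN-γ and 17 beside IL-4. With E. coli 6 of 16 were higher and 0 lower by edgeR (8 at an unadjusted p under 0.05, 7 called by DESeq2), with IFN-γ 5 higher and 2 lower, with both 9 higher and 2 lower, and with IL-4 1 of 17 higher and 1 lower. For this list and those below, the shares over all genes tested are those given for the neighbours of *Tnf*: 13.5% higher and 16.7% lower (E. coli), 15.6% and 16.0% (IFN-γ), 23.9% and 25.2% (both), 5.97% and 4.35% (IL-4), and 1 of 17 each way with IL-4 is near them. The median log2 changes of the receptors were 0.33, -0.02, 0.59 and 0.13, and these and the medians of the lists below stand beside -0.02, -0.03, -0.04 and 0.00 over all genes. *Tnfrsf12a*, the receptor FN14 for the product of *Tnfsf12*, stood at 50.8 ± 1.71 normalized CPM with E. coli and 18.9 ± 3.65 without, a log2 rise of 1.43 (SE 0.23, adjusted p 0.000109). *Tnfrsf9*, the receptor 4-1BB for the product of *Tnfsf9*, had 2, 4 and 9 counts in unstimulated a to c, 11, 13 and 26 with E. coli, 1, 2 and 1 with IFN-γ, and 12, 17 and 19 with both, and it passed the filter on low counts through the libraries with E. coli. *Tnfrsf13b*, a receptor for BAFF and APRIL, changed by -2.05 with IFN-γ (SE 0.17, adjusted p 2.42e-08) and by -2.83 with both stimuli (SE 0.19, adjusted p 5.51e-10). The counts of both ligand genes were near 0 here, and those of APRIL leave out reads in shared exon bases where the union mode was used. *Cd40* rose by 2.01 with both stimuli (SE 0.25, adjusted p 2.12e-06) and by 1.13 with IL-4 (SE 0.17, adjusted p 0.00277, or 0.99 without unstimulated e).

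Of 9 genes that cut or release ligands from the membrane, 7 were tested. With E. coli 4 were higher and 1 lower, with IFN-γ 3 and 0 (3 at an unadjusted p under 0.05, 3 called by DESeq2), with both 4 and 1, and with IL-4 1 and 0 (1 and 1), with median log2 changes of 0.38, 0.22, 0.63 and -0.02. Over all genes 13.5% were higher and 16.7% lower (E. coli), 15.6% and 16.0% (IFN-γ), 23.9% and 25.2% (both), and 5.97% and 4.35% (IL-4). *Adam17*, whose protease sheds TNF, stood at 125 ± 15.5 normalized CPM with IFN-γ, 138 ± 15.6 with both stimuli and 61.6 ± 3.12 without, with log2 rises of 1.01 (SE 0.13, adjusted p 5.51e-06) and 1.16 (SE 0.13, adjusted p 4.69e-07). *Rhbdf2*, for the partner iRhom2 that *Adam17* needs, rose by 1.02 with IFN-γ (SE 0.24, adjusted p 0.00297). *Furin*, for the protease that matures several ligands, rose by 1.00 with E. coli (SE 0.20, adjusted p 0.000661).

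All 12 listed genes that act on *Tnf* or AU-rich mRNA were tested. With E. coli 5 were higher and 1 lower, with IFN-γ 3 and 1, with both 6 and 0 (7 at an unadjusted p under 0.05, 6 called by DESeq2), and with IL-4 1 and 0 (2 and 1), with medians of 0.28, 0.29, 0.44 and -0.12. With IFN-γ these numbers are near the shares of all genes, 15.6% higher and 16.0% lower, and with IL-4 near 5.97% and 4.35%. *Zfp36*, for the decay factor tristetraprolin, was at 365 ± 45.7 normalized CPM with E. coli against 539 ± 63.3 unstimulated, a log2 fall by 0.56 (SE 0.14, adjusted p 0.00504). With both stimuli *Zfp36* was at 537, 574 and 724 normalized CPM, within or above the unstimulated 479, 605 and 531. *Zfp36l1*, for a related decay factor, rose with E. coli by 1.11 (SE 0.16, adjusted p 3.84e-05). *Mapkapk2*, for the kinase that inactivates tristetraprolin, rose with E. coli by 0.85 (SE 0.11, adjusted p 1.32e-05), and *Zc3h12a*, for the RNase regnase-1, by 1.57 (SE 0.15, adjusted p 3.9e-07).

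Of 12 genes named for induction by TNF or for binding its product A20, with *Litaf*, 9 were tested. With E. coli 5 were higher and 1 lower, with IFN-γ 2 and 2, with both 6 and 1, and with IL-4 1 and 1, with medians of 0.31, 0.28, 1.07 and 0.04. Over all genes 13.5% were higher and 16.7% lower with E. coli, and 23.9% and 25.2% with both. *Tnfaip3*, for A20, which ends NF-κB signalling, stood at 51.9 ± 8.61 normalized CPM in unstimulated a to c, 116 ± 9.76 after E. coli, 120 ± 14.0 after IFN-γ and 259 ± 22.6 after both, the last a log2 rise of 2.31 (SE 0.14, adjusted p 1.1e-10). *Tnfaip2* rose by 2.67 with IFN-γ (SE 0.14, adjusted p 5.6e-11), where *Tnf* did not pass the test. Of 28 adaptors and death-machinery genes, 27 were tested. With E. coli 2 were higher and 3 lower, with IFN-γ 8 and 2, with both 14 and 3, and with IL-4 0 and 0 by edgeR (1 at an unadjusted p under 0.05, 0 called by DESeq2), with medians of -0.04, 0.33, 0.33 and 0.01. With E. coli both numbers are below the shares of all genes, 13.5% and 16.7%, and the number higher after both is above 23.9%. With IFN-γ (15.6% and 16.0% of all genes) DESeq2 called 7 where edgeR called 10 in either direction. *Traf1*, an adaptor of TNF receptors, rose by 1.58 with both stimuli (SE 0.32, adjusted p 0.000477), and *Ripk3*, the necroptosis kinase, by 1.39 with E. coli (SE 0.22, adjusted p 7.71e-05).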

How the data were processed

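The deposited counts per gene were used as the authors gave them, without realignment. The methods name fastp 0.20.1, STAR 2.7.2a, TopHat2 2.1.0 and HTSeq 0.6.1 in union mode on GRCm38. The methods name the CEL-Seq2 protocol, and neither they nor the labels say whether reads sharing a molecular identifier were collapsed. In the 12 libraries with E. coli and IFN-γ no gene passes 4095 counts, 21.1% to 39.4% of counted reads fell on no gene and 1.84% to 2.27% were ambiguous. Ensembl 97 names were found for 98.3% and 99.7% of the identifiers of the 2 layouts.

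The ligand genes and the lists were chosen with earlier results of these data known. Each layout was fitted by itself in R 4.3.3 with edgeR 4.0.16 (filterByExpr, TMM, quasi-likelihood F test, all groups of the layout in 1 fit), with p adjusted by Benjamini-Hochberg over all 9883 and 10556 genes tested. A gene was called at an adjusted p under 0.05. Intervals cover 95%. The 7 gene lists and 9 cell-type lists came from gene names and known roles, the summed level of 1 cell-type list is not reported, and of the called genes of a list only the 3 that changed most in either direction in a comparison could be named, and which of these to name was chosen after their values were seen.

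Alternatives were DESeq2 size factors, library totals only, DESeq2 1.42.0, no filter, a filter of 10 counts in 3 libraries, a further 2-fold threshold, only the 6 libraries compared, a replicate block, and leaving out each library. A correction of counts for the ceiling was added after the data were seen. It took as the limit 4096, the number of different molecular identifiers of 6 bases, and it changed no call of a ligand gene.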

Additional observations from a re-analysis of the deposited data

How the results depend on the processing

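No called change of a ligand gene reversed under any alternative, while differences near 0 that were not called could change sign, such as *Tnf* in both stimuli against E. coli (-0.25 to 0.11 with each library left out). The number of ligand genes called moved as follows, apart from leaving out libraries. Lower with E. coli was 3 and became 2 without a filter and 2 with a further 2-fold threshold. Lower with both stimuli was 3 and became 2 with 2-fold, and higher in IFN-γ against E. coli was 3 and became 2 with 2-fold. Higher with IFN-γ was 2 and became 1 with library totals only and 1 with 2-fold. Lower with IFN-γ was 2 and became 1 with DESeq2 and 1 with 2-fold. Higher in both stimuli against IFN-γ was 1 and became 2 with the replicate block, where *Tnfsf9* gave 0.70 (adjusted p 0.0424, and 0.0424 to 0.33 over all alternatives), and lower was 2 and became 1 with 2-fold. Lower in both stimuli against E. coli was 1 and became 2 with library totals only. The interaction called higher was 0 by edgeR and became 1 without a filter. Lower with IL-4 was 1 and became 0 with library totals only, where edgeR gave *Tnf* an adjusted p of 0.0521. Leaving out 1 library at a time gave 2 to 3 lower with E. coli, 2 to 3 higher and 1 to 2 lower with IFN-γ, 2 to 3 lower with both stimuli, 0 to 1 higher for the interaction and 0 to 1 lower with IL-4, and the other numbers held. The cause was not tested. The limits are 3 libraries per group, not known to be separate animals, 1 time point, bulk RNA, and separate unstimulated libraries for IL-4.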
